A study of Mus musculus with 8 samples.

Results

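The 9 genes described here, Kcnd2, Kcnd3, Kcnip2, Kcnj2, Kcnj11, Kcna5, Kcnq1, Kcnh2 and Kcne1, encode subunits of the potassium channels that carry the repolarizing currents of heart muscle. Every non-control probe whose RefSeq transcript maps to 1 of these symbols was taken, which gave 12 probes of 39429 on the array, and 9 genes of 20659. Kcnd3, Kcnj11 and Kcna5 have 2 probes each and the other 6 genes have 1. All 12 probes were among the 35329 that were bright enough to be tested.

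The RNA came from the myocardium, the muscle of the heart, of untreated male mice. NPRA-/- samples (3 arrays) are labelled as lacking NPRA, which Npr1 encodes and which answers the natriuretic peptides of the heart by making cyclic GMP, in a conditional model built on a floxed allele; the series title places the deletion in the heart. NPRA+/+ samples (5 arrays) are the wild type. The labels used here name neither the driver of the deletion nor the age of the mice. Total RNA was amplified, labelled with Cy3 and hybridised to 1-colour Agilent arrays, 1 sample each. The series' design text speaks of RNA methylation (m6A) measured by array, while its labels describe total RNA in a single dye and a gene expression protocol; the levels below are read as RNA abundance on that basis. The samples are called biological repetitions, but the labels do not say which animal each came from, and a p-value here reflects only how much these samples vary.

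Potassium channels let potassium leave the cardiomyocyte and so end the action potential. The transient outward current shapes the early phase, delayed rectifiers carry the later phase, and inward rectifiers hold the resting potential. Pore-forming subunits assemble in fours and are joined by auxiliary subunits that change their gating or their transport to the membrane. In the adult mouse ventricle, the fast transient outward current and the slowly inactivating currents dominate, while the slow and rapid delayed rectifiers of Kcnq1 and Kcnh2 are best known from the human heart and its inherited long QT syndromes.

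A level is the log2 of a probe's processed signal after its array's 75th percentile was subtracted, so 0 is the 75th percentile of that array. A change is the mean NPRA-/- level minus the mean NPRA+/+ level from a limma fit across all tested probes, with its standard error (SE), and every adjusted p is limma's, after Benjamini-Hochberg adjustment over those 35329 probes. That signal at the 75th percentile was 775 to 985 on the NPRA-/- arrays and 782 to 1253 on the NPRA+/+ arrays. Between 83.7% and 92.6% of probes on NPRA-/- arrays and between 79.5% and 88.8% on NPRA+/+ arrays were well above background. The number of arrays limits the precision of every value. Over all tested probes the median change was 0.21, and in 5 equal bins of signal, dim to bright, it was 0.63, 0.40, 0.22, 0.049 and 0.046; changes of single probes are therefore also given relative to the median of the 1000 probes nearest in signal. The file headers give 4 scan days and 6 slides. Scan day 1 holds NPRA-/- replicates 2 and 3 and NPRA+/+ replicates 2 and 3, and no other day and no slide holds both genotypes. Npr1 itself had a level of -5.85 ± 0.50 in NPRA-/- samples (SD, n = 3) and -5.88 ± 0.66 in NPRA+/+ samples (SD, n = 5), a change of 0.031 (SE 0.40, adjusted p = 0.978). Its probe was well above background on 2 of 3 NPRA-/- arrays and 4 of 5 NPRA+/+ arrays. Whether it lies in the deleted part is not given, so it does not check the labels.

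None of the 9 potassium channel genes passed the threshold of an adjusted p under 0.05. Of the 12 probes, 0 were higher and 0 were lower in NPRA-/- myocardium, beside 0.32% of all tested probes called higher and 0.0283% called lower. At an unadjusted p under 0.05, 1 probe was higher (Kcnj2) and 0 were lower, against 18.3% of all probes higher and 1.36% lower. The median change of the 12 probes was 0.17, beside 0.21 over all probes. Of the 12, 8 had a change above 0, where 75% of all probes did, and 4 lay above the overall median, where by construction 50% of all probes lie. Kcnj2 was the 1 probe whose NPRA-/- and NPRA+/+ values did not overlap, on the higher side, where 14.1% of all probes did not overlap; on the lower side there were 0 of 12, against 1.29%. The RNA is from whole myocardium, so fewer cells of a type and less RNA per cell cannot be told apart.

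**Figure D1:**
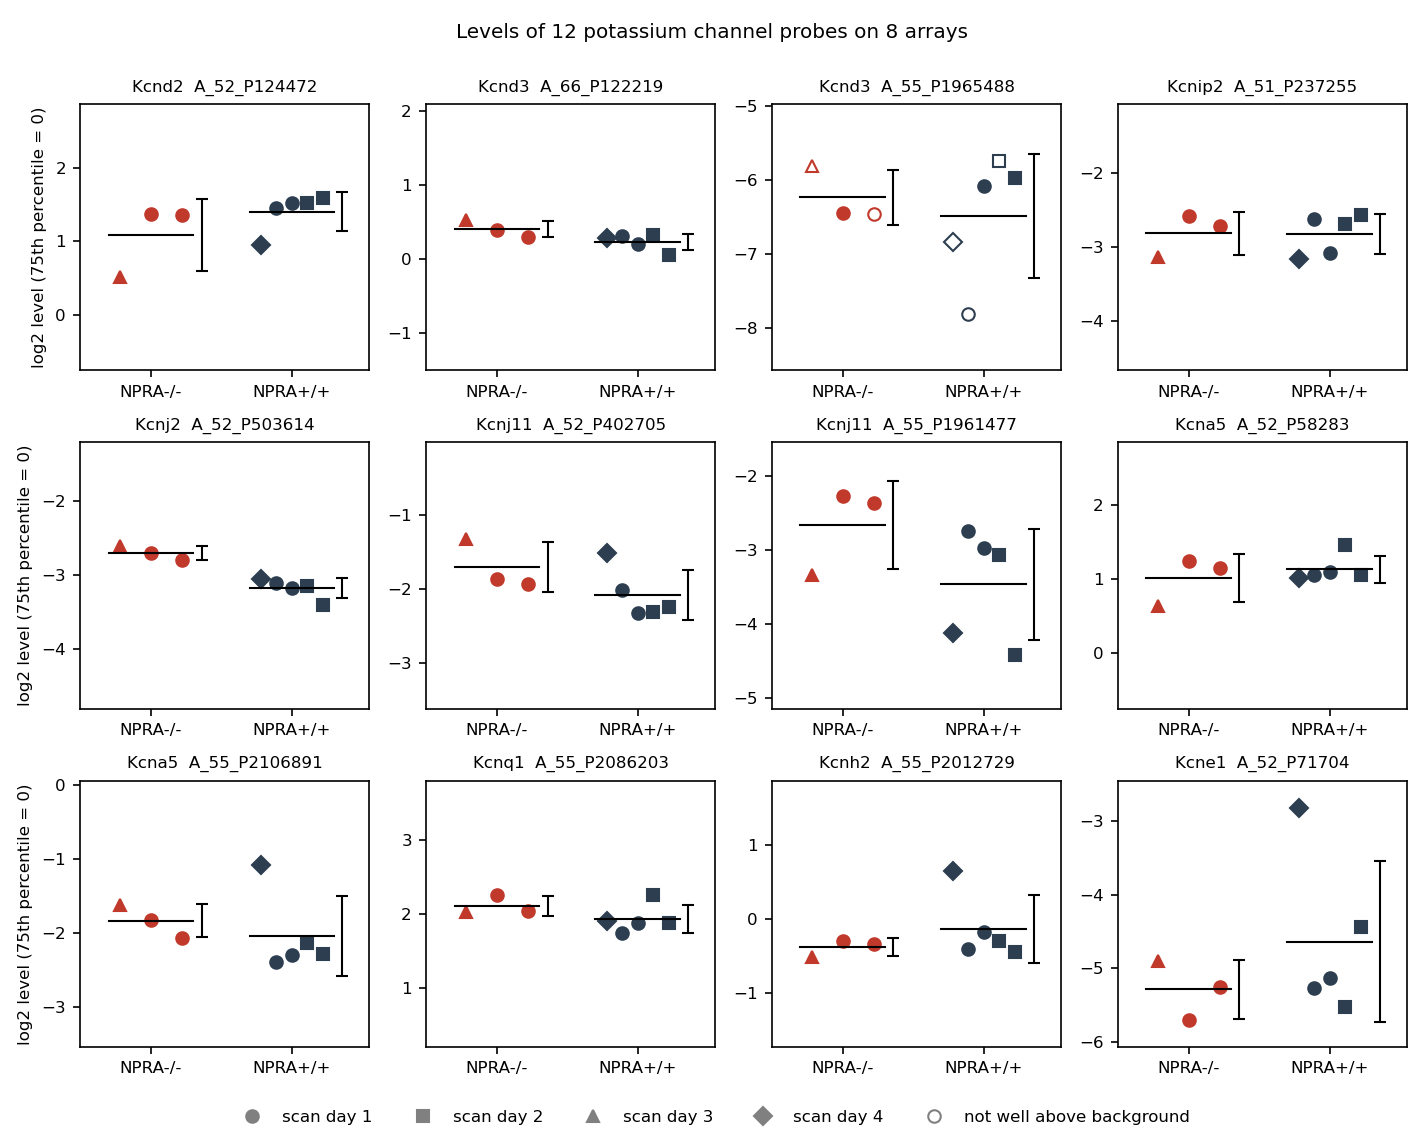
Level of each of the 12 potassium channel probes on the 8 arrays, with NPRA-/- (red) left of NPRA+/+ (blue); the vertical axis is the log2 level relative to the array's 75th percentile, every panel spans the same number of log2 units, lines are means, bars are SD (n = 3 and n = 5), symbols give the scan day and open symbols mark values not well above background. The Kcnj2 panel is the 1 in which the groups do not overlap, and NPRA+/+ replicate 1 (diamond) stands apart for Kcnd2, Kcnh2, Kcne1 and the Kcna5 probe A_55_P2106891.

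Kcnd2 encodes the pore-forming subunit that carries most of the fast transient outward current in mouse ventricle. Its probe, A_52_P124472, had levels of 0.53, 1.37 and 1.36 on the NPRA-/- arrays (replicates 1 to 3), against 0.95, 1.46, 1.52, 1.52 and 1.59 on the NPRA+/+ arrays (replicates 1 to 5). Replicate 1 was the lowest array in each genotype, and NPRA-/- replicates 2 and 3 lay above the lowest NPRA+/+ array, so the groups overlapped. The change was -0.32 (SE 0.24, 95% interval -0.87 to 0.24, adjusted p = 0.516), and -0.33 relative to probes of like signal. On scan day 1 alone it was -0.12, and without NPRA-/- replicate 1 it was -0.036.

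Kcnd3 encodes the second pore-forming subunit of the same current. Probe A_66_P122219 had levels of 0.52, 0.39 and 0.30 in NPRA-/- samples, against 0.29, 0.31, 0.20, 0.32 and 0.06 in NPRA+/+ samples. The NPRA-/- values sat at the upper end of a narrow range, and NPRA-/- replicate 3 fell inside the NPRA+/+ range. The change was 0.17 (SE 0.12, 95% interval -0.12 to 0.45, adjusted p = 0.4996), and 0.09 on scan day 1. Relative to probes of like signal it was 0.14. Its within-genotype SD of 0.11 was among the smaller ones, with 8.1% of the 1000 probes of like signal below it. The other Kcnd3 probe, A_55_P1965488, is annotated to a different RefSeq transcript of the gene and was well above background on 1 of 3 NPRA-/- arrays and 2 of 5 NPRA+/+ arrays. It had levels of -5.81, -6.44 and -6.46 in NPRA-/- samples, against -6.84, -7.81, -6.08, -5.75 and -5.98 in NPRA+/+ samples. Those values overlapped across a range of 2.06 log2 units, and the change was 0.25 (SE 0.46, adjusted p = 0.812). Relative to probes of like signal that change was -0.49.

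Kcnip2 encodes a calcium-binding auxiliary subunit that the Kcnd channels need for a normal transient outward current. Its probe, A_51_P237255, is annotated to 1 of the gene's RefSeq transcripts. Levels were -3.15, -2.59 and -2.72 in NPRA-/- samples and -3.17, -2.63, -3.08, -2.69 and -2.58 in NPRA+/+ samples. Both genotypes covered the same range, with replicate 1 the lowest in each. The change was 0.012 (SE 0.20, 95% interval -0.46 to 0.48, adjusted p = 0.983), or between 0.729 and 1.39 times the NPRA+/+ signal. Relative to probes of like signal it was -0.26.

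The difference between the Kcnd2 and Kcnip2 levels within an array is free of the array's scaling, but not of a change that differs between dim and bright probes. Only its difference between genotypes can be read, since levels of different probes are not comparable. It was computed after the values had been seen, along with 5 other pairs of subunits that assemble or share a channel, and is given without a test. It was 3.67, 3.96 and 4.08 on NPRA-/- arrays, against 4.12, 4.09, 4.596, 4.21 and 4.16 on NPRA+/+ arrays. The groups met without overlapping, and the means differed by -0.33. Probes of like signal had a median change of 0.014 for Kcnd2 and 0.27 for Kcnip2. Under quantile normalization, which changes dim and bright probes by different amounts, the difference of the means was -0.053. For Kcnd3 over Kcnip2 the means differed by 0.16, and for Kcnd2 over Kcnd3 by -0.49 (-0.15 without NPRA-/- replicate 1), with overlap in both. The means differed by 0.82 for Kcnq1 over Kcne1, by 0.49 for Kcnj2 over Kcnj12, a related inward rectifier, and by 0.49 for Kcnj11 over Abcc9, again with overlap. Under quantile normalization these 5 other pairs differed by 0.43, -0.48, 1.39, 0.21 and 0.33, in the order given.

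Kcnj2 encodes the main pore-forming subunit of the inward rectifier current, which holds the resting potential of ventricular cells; its loss of function in humans causes Andersen-Tawil syndrome. Probe A_52_P503614 had levels of -2.61, -2.71 and -2.79 in NPRA-/- samples, against -3.05, -3.11, -3.19, -3.15 and -3.41 in NPRA+/+ samples. All 3 NPRA-/- arrays lay above all 5 NPRA+/+ arrays. The change was 0.48 (SE 0.13, 95% interval 0.18 to 0.77), a 1.39-fold higher signal (1.13 to 1.71), with an unadjusted p of 0.00592 and an adjusted p of 0.107 in the limma fit. Probes of like signal had a median change of 0.30, which leaves 0.18 for Kcnj2 relative to them. On scan day 1 the change was 0.40 (adjusted p = 0.060). Without NPRA+/+ replicate 1 it was 0.51 (adjusted p = 0.042), and with array weights, which count arrays that fit less well for less, it was 0.43 (adjusted p = 0.0081). In those 2 settings 3901 of 35327 and 8808 of 35329 tested probes were called higher, against 113 in the main fit, so these calls are not particular to Kcnj2. Quantile normalization gave 0.18 (adjusted p = 0.755). Over all alternatives the adjusted p ran from 0.0081 to 0.755, and the sign was positive in each of the 25. The SD within genotypes was 0.12, with 5.2% of probes of like signal below it.

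Kcnj11 encodes the pore of the ATP-sensitive potassium channel, which opens when ATP runs low and pairs in ventricular muscle with the sulfonylurea receptor of Abcc9. Probe A_52_P402705 had levels of -1.32, -1.86 and -1.93 in NPRA-/- samples, against -1.51, -2.01, -2.32, -2.31 and -2.24 in NPRA+/+ samples. Replicate 1 was the highest in each genotype, and NPRA+/+ replicate 1 lay above NPRA-/- replicates 2 and 3. The change was 0.38 (SE 0.24, 95% interval -0.16 to 0.92, adjusted p = 0.423), and 0.18 without NPRA-/- replicate 1. Probe A_55_P1961477 had levels of -3.34, -2.27 and -2.37 in NPRA-/- samples, against -4.12, -2.74, -2.98, -3.08 and -4.42 in NPRA+/+ samples. Here replicate 1 was the lowest NPRA-/- array and among the lowest NPRA+/+ arrays, the opposite of the other probe. The change was 0.81 (SE 0.45, 95% interval -0.23 to 1.84, adjusted p = 0.364), and on scan day 1 the 2 probes gave 0.27 and 0.54. Relative to probes of like signal they gave 0.21 and 0.47 over all arrays. The first probe exceeded the second by 2.03, 0.42 and 0.44 on NPRA-/- arrays and by 2.61, 0.74, 0.66, 0.77 and 2.18 on NPRA+/+ arrays. The 2 probes of this gene therefore disagree on replicate 1 of each genotype and on NPRA+/+ replicate 5.

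Kcna5 encodes a pore that in mouse ventricle carries a component of the slowly inactivating current. Probe A_52_P58283 had levels of 0.63, 1.24 and 1.14 in NPRA-/- samples, against 1.01, 1.05, 1.08, 1.45 and 1.05 in NPRA+/+ samples. The groups overlapped, with NPRA-/- replicate 1 the lowest array and NPRA+/+ replicate 4 the highest. The change was -0.12 (SE 0.18, 95% interval -0.54 to 0.29, adjusted p = 0.760), and it was 0.13 on scan day 1, where NPRA-/- replicate 1 is absent. Probe A_55_P2106891 had levels of -1.62, -1.82 and -2.06 in NPRA-/- samples, against -1.08, -2.40, -2.29, -2.13 and -2.29 in NPRA+/+ samples. Its NPRA-/- values lay above 4 of the 5 NPRA+/+ arrays and below NPRA+/+ replicate 1. The change was 0.21 (SE 0.31, adjusted p = 0.764), and 0.44 (adjusted p = 0.085) without NPRA+/+ replicate 1. Relative to probes of like signal, A_52_P58283 changed by -0.13 and A_55_P2106891 by 0.043.

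Kcnq1 encodes the pore of the slow delayed rectifier. Probe A_55_P2086203 had levels of 2.03, 2.27 and 2.04 in NPRA-/- samples, against 1.91, 1.75, 1.89, 2.26 and 1.88 in NPRA+/+ samples. The NPRA-/- arrays lay above 4 of the 5 NPRA+/+ arrays, and NPRA+/+ replicate 4 lay within their range. The change was 0.17 (SE 0.15, 95% interval -0.17 to 0.52, adjusted p = 0.567), and 0.33 on scan day 1. Relative to probes of like signal it was also 0.17. Kcne1 encodes the single-pass auxiliary subunit that slows the opening of the Kcnq1 pore. Probe A_52_P71704 had levels of -4.90, -5.69 and -5.26 in NPRA-/- samples, against -2.83, -5.26, -5.13, -5.52 and -4.44 in NPRA+/+ samples. NPRA+/+ replicate 1 was the highest array, well apart from the next at -4.44, and the other 7 overlapped. The change was -0.64 (SE 0.58, 95% interval -1.98 to 0.69, adjusted p = 0.591), and it was -0.19 without that array and 0.24 after normexp background correction. This interval is the widest of the 12, and 89% of probes of like signal had a smaller SD than its 0.92. Relative to probes of like signal the Kcne1 change was -1.18, the largest of the 12 in size. Over the 25 alternatives the change ran from -1.23 under quantile normalization (adjusted p = 0.592, limma) to the 0.24 of normexp.

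Kcnh2 encodes the pore of the rapid delayed rectifier, the channel blocked by many drugs that lengthen the QT interval. Probe A_55_P2012729 had levels of -0.52, -0.30 and -0.34 in NPRA-/- samples, against 0.65, -0.41, -0.18, -0.30 and -0.45 in NPRA+/+ samples. Leaving NPRA+/+ replicate 1 aside, the arrays of both genotypes covered nearly the same range. The change was -0.25 (SE 0.26, 95% interval -0.84 to 0.34, adjusted p = 0.649), and -0.048 without that array. Relative to probes of like signal it was -0.27.

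**Figure D2:**
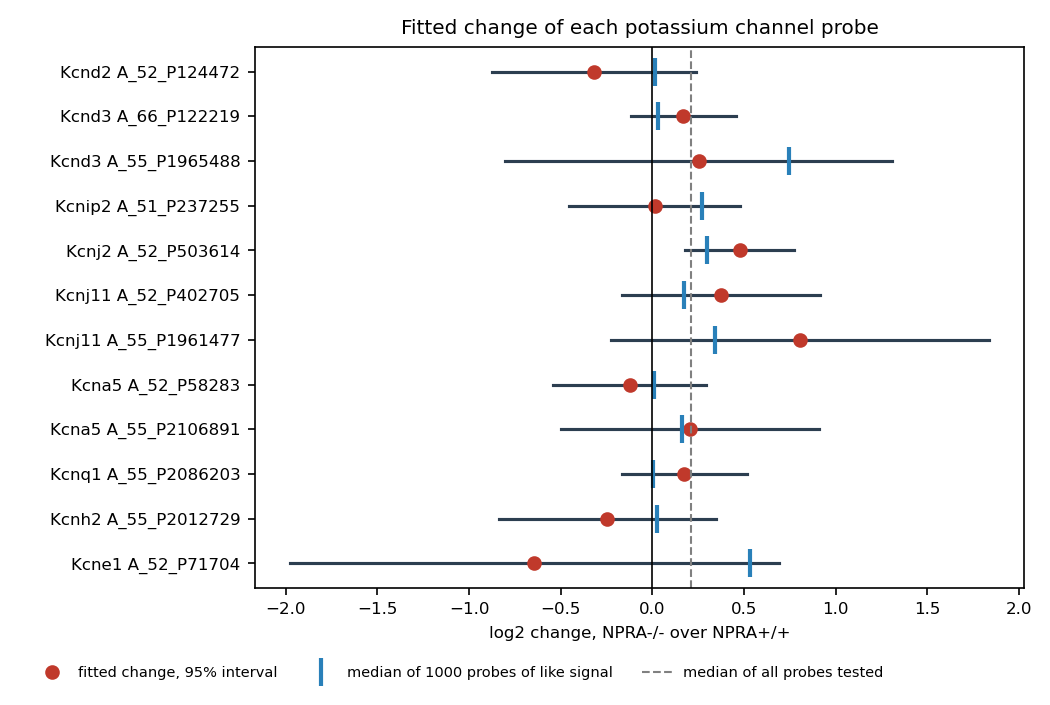
Fitted change of each potassium channel probe (horizontal axis, log2, NPRA-/- over NPRA+/+), with points for the change, bars for its 95% interval, blue ticks for the median change of the 1000 probes nearest in signal and a dashed line for the median of all tested probes (0.21). The Kcnj2 interval, 0.18 to 0.77, is the 1 that leaves out 0, and it contains the tick at 0.30.

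The highest and lowest values of the 12 probes, 24 in all, were spread over several arrays. NPRA-/- replicate 1 held 6 of them and NPRA-/- replicates 2 and 3 held 3 and 0. NPRA+/+ replicates 1 to 5 held 4, 3, 1, 2 and 5. NPRA-/- replicate 1 and NPRA+/+ replicate 1 were each scanned on a day of their own, so the scan day and the sample cannot be told apart for them, while NPRA+/+ replicate 5 shared its day with NPRA+/+ replicate 4.

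For each gene the 1 gene whose levels ran most alike over the 8 arrays was found among 15527 genes well above background on all of them. Pearson's r was 0.993 for Kcnd2 with Med9, 0.981 for Kcnd3 with Tuba8, 0.980 for Kcnip2 with Trmt10c and 0.988 for Kcnj2 with Ccdc34. It was 0.991 for Kcnj11 with Vmn2r85, 0.978 for Kcna5 with Prkca, 0.926 for Kcnq1 with Akt1 and 0.986 for Kcne1 with Yju2. Kcnh2 ran most like Pnck (r = 0.950), and without the 2 arrays farthest from the median r was 0.0025, so that likeness rests on them. For the other 8 genes r stayed between 0.802 and 0.982 without such arrays. These are the highest of many correlations over the same 8 arrays, which share a scaling, and are a description.

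Of 16 other voltage-gated pore-forming genes tested, 0 passed the threshold, with a median change of 0.32, beside 0.16 over all 19056 genes tested with 1 probe each. At that level of 1 probe a gene, the 9 described genes had a median of 0.012. Among those 19056 genes, 0.294% were called higher and 0.0262% lower, and 16.2% and 1.24% had an unadjusted p under 0.05 in those directions; 2 of the 16 did so on the higher side (Kcnc4 and Kcnq5) and 0 on the lower. Kcnc4, a fast-activating pore, had a level of 2.47 ± 0.10 in NPRA-/- samples and 1.48 ± 0.67 in NPRA+/+ samples (SD, n = 3 and n = 5), with an adjusted p of 0.182 in limma. Kcnq5 had -5.84 ± 0.20 in NPRA-/- samples and -6.51 ± 0.35 in NPRA+/+ samples without overlap (adjusted p = 0.148, limma). It was well above background on only 2 of 3 NPRA-/- arrays and 1 of 5 NPRA+/+ arrays. Among all tested probes, 14.1% had no overlap between genotypes on the higher side and 1.29% on the lower. Kcna4, the pore of the slow transient outward current, had 2.23 ± 0.62 in NPRA-/- samples and 2.85 ± 0.20 in NPRA+/+ samples. Kcnb2 and Kcnh1 were well above background on 0 arrays.

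Auxiliary subunits of voltage-gated channels also gave 0 limma calls among 10 tested genes, with 2 higher and 0 lower before adjustment. Dpp10, a partner of the Kcnd channels, had -2.38 ± 0.18 in NPRA-/- samples and -2.95 ± 0.31 in NPRA+/+ samples without overlap (adjusted p = 0.173, limma). Kcnip1 had -4.21 ± 0.22 in NPRA-/- samples and -4.63 ± 0.23 in NPRA+/+ samples, also without overlap (adjusted p = 0.242, limma). Dpp6 had 4.61 ± 0.46 in NPRA-/- samples and 4.66 ± 0.48 in NPRA+/+ samples. Kcne5 had no matched probe, and Kcnab3 was well above background on at most 2 arrays.

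Among 10 other inward rectifiers and sulfonylurea receptors 0 passed in limma, and before adjustment 1 was higher and 1 lower. Kcnj4, which encodes another strong inward rectifier, had -2.82 ± 0.14 in NPRA-/- samples and -3.53 ± 0.26 in NPRA+/+ samples, a change of 0.71 (SE 0.17, adjusted p = 0.0919, limma) without overlap. Kcnj14 had -4.23 ± 0.17 in NPRA-/- samples and -3.65 ± 0.36 in NPRA+/+ samples by its brightest probe (adjusted p = 0.202, limma). A dimmer Kcnj14 probe, A_51_P250559, went the other way. It had -5.16, -5.47 and -4.84 on NPRA-/- arrays, against -5.87, -5.47, -5.36, -5.86 and -5.56 on NPRA+/+ arrays, with overlap. So the direction for Kcnj14 depends on the probe. Kcnj5, a subunit of the acetylcholine-gated channel, had 2.79 ± 0.05 in NPRA-/- samples and 2.77 ± 0.30 in NPRA+/+ samples. Of 13 two-pore and calcium-activated channels 0 passed, with a median change of 0.35, and before adjustment 4 were higher and 0 lower. Kcnma1, the pore of the large-conductance calcium-activated channel of smooth muscle, had -3.67 ± 0.21 in NPRA-/- samples and -4.60 ± 0.25 in NPRA+/+ samples. Its change was 0.93 (SE 0.18, adjusted p = 0.0693, limma), without overlap. Kcnk6 had -0.43 ± 0.13 in NPRA-/- samples and -0.79 ± 0.09 in NPRA+/+ samples, also without overlap (adjusted p = 0.169, limma). Kcnk3, a two-pore channel of resting conductance, had 0.27 ± 0.05 in NPRA-/- samples and 0.52 ± 0.38 in NPRA+/+ samples.

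Transcription factors that are known to set channel genes gave 0 calls of 15, with a median change of 0.039, and before adjustment 1 was higher and 1 lower. Irx3, an Iroquois factor, had a level of 1.40 ± 0.02 in NPRA-/- samples and 1.86 ± 0.21 in NPRA+/+ samples, a change of -0.46 (SE 0.15, adjusted p = 0.152, limma) without overlap. Hand1 had -3.86 ± 0.22 in NPRA-/- samples and -4.75 ± 0.32 in NPRA+/+ samples, also without overlap (adjusted p = 0.0859, limma). Nkx2-5, a core factor of cardiomyocytes, had 3.26 ± 0.04 in NPRA-/- samples and 3.46 ± 0.07 in NPRA+/+ samples (adjusted p = 0.354, limma). Like Irx3 it was lower without overlap. The share of all tested probes without overlap was 14.1% on the higher side and 1.29% on the lower.

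**Figure D3:**
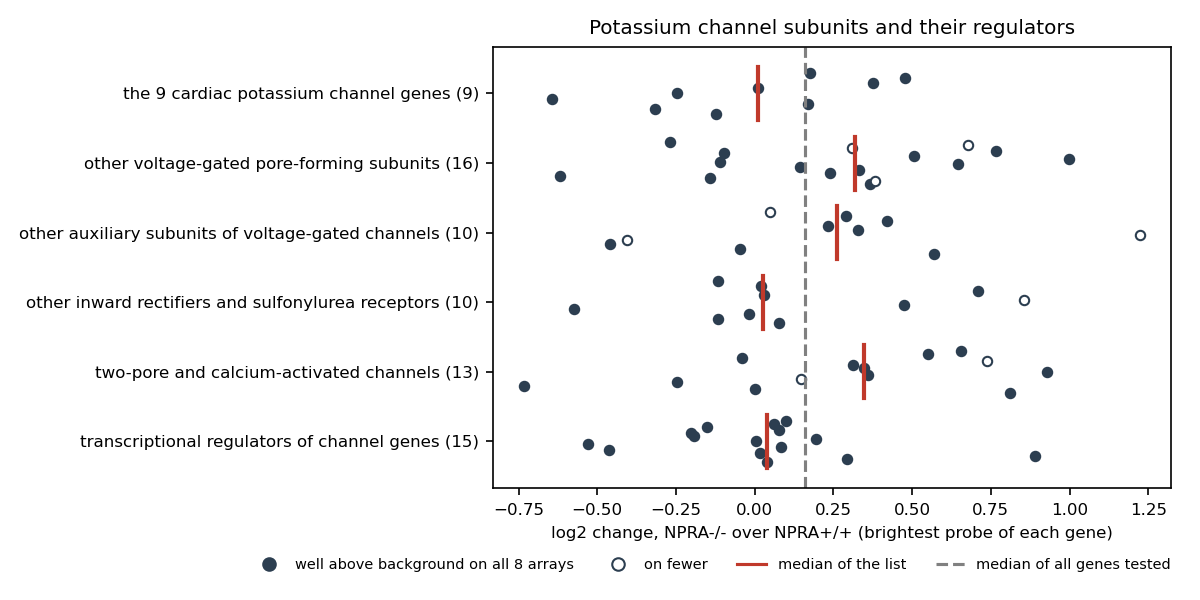
Change of each tested gene (horizontal axis, log2, NPRA-/- over NPRA+/+, 1 probe a gene) in the 9 cardiac potassium channel genes and 5 lists around them, with the number tested in brackets; filled points were well above background on all 8 arrays, red lines are list medians and the dashed line is the median of all genes tested (0.16). No point passed the threshold, and the points of each list lie on both sides of 0.

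Cell type markers were read beside these values. The 11 ventricular cardiomyocyte markers were well above background on all 8 arrays, and 0 passed. Their median change was 0.60, beside 0.16 over all genes tested, and 10 of them lay above that overall median. The log2 of their summed level ran from 9.73 to 11.04 on NPRA-/- arrays and from 8.84 to 10.73 on NPRA+/+ arrays. Among them, Myl3 had 7.31 ± 0.66 in NPRA-/- samples and 6.54 ± 0.70 in NPRA+/+ samples, Actc1 had 7.46 ± 0.87 in NPRA-/- samples and 6.71 ± 0.80 in NPRA+/+ samples, and Ttn had 6.63 ± 0.27 in NPRA-/- samples and 6.25 ± 0.38. in NPRA+/+ samples Of 6 atrial markers 0 passed, but 3 of them, singled out after their values were seen, differed widely between arrays of 1 genotype. Myl7, the atrial light chain, had levels of 1.31, -3.29 and 1.25 on NPRA-/- arrays, against -0.13, -1.51, -4.49, 2.02 and 1.30 on NPRA+/+ arrays. Sln, an atrial regulator of the calcium pump, had 2.94, -3.02 and 2.69 on NPRA-/- arrays, against 1.70, 0.41, -3.11, 3.85 and 2.83 on NPRA+/+ arrays. Myl4 had 5.19, 0.81 and 4.86 on NPRA-/- arrays, against 3.61, 2.58, 0.02, 5.29 and 4.76 on NPRA+/+ arrays. The 3 genes were lowest on NPRA-/- replicate 2 and NPRA+/+ replicate 3, so both genotypes hold arrays with high and low levels of them. The other atrial markers did not swing in this way, with SDs within a genotype from 0.17 to 0.48. The part of the 3 genes in the channel values was not tested. Nppa had 5.53 ± 0.17 in NPRA-/- samples and 5.41 ± 0.18 in NPRA+/+ samples, and Bmp10 had -2.40 ± 0.48 in NPRA-/- samples and -2.85 ± 0.47 in NPRA+/+ samples.

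**Figure D4:**
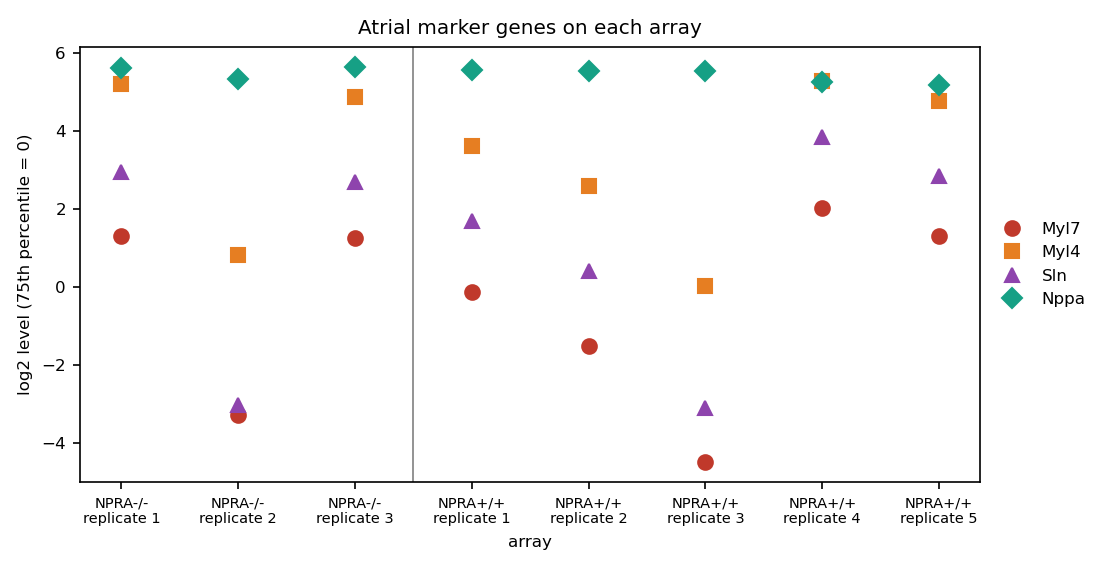
Level of 4 atrial marker genes (vertical axis, log2 relative to the array's 75th percentile) on each of the 8 arrays, NPRA-/- left of the line and NPRA+/+ right of it. Myl7, Myl4 and Sln are low on NPRA-/- replicate 2 and NPRA+/+ replicate 3, while Nppa is nearly level across the arrays.

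Of the markers of other cells, 1 of 6 mesothelial and 1 of 7 nerve and Schwann cell genes passed, both higher, and 0 passed among 7 conduction system, 7 endothelial, 7 fibroblast, 7 smooth muscle and pericyte and 6 macrophage genes. Before adjustment, 4 mesothelial, 3 nerve and Schwann cell, 2 conduction system, 3 fibroblast and 1 smooth muscle gene were higher, 0 were lower in these 7 lists, and 0 of the ventricular and 0 of the atrial markers were either. Of the 6 mesothelial genes tested, 3 were well above background on all 8 arrays. The others were so on all 3 NPRA-/- arrays but on at most 2 of 5 NPRA+/+ arrays. Their NPRA+/+ values therefore lie near background, and these genes reached the 3 arrays needed for testing only through the NPRA-/- arrays. The mesothelial count before adjustment, summed level and mean level include them, so a higher NPRA-/- value was favoured by that filter. Msln, a marker of the outer lining of the heart, had -1.42 ± 0.66 in NPRA-/- samples and -3.90 ± 0.48 in NPRA+/+ samples, a change of 2.48 (SE 0.36, adjusted p = 0.0498, limma). Nefl, a neurofilament, had -3.23 ± 0.21 in NPRA-/- samples and -4.19 ± 0.12 in NPRA+/+ samples (change 0.95, SE 0.14, adjusted p = 0.04998, limma). Both lie just past the threshold, and 0 probes of the whole array passed under quantile normalization, scaling to the median, in the deposited table, with scan day or slide as a block, or without any 1 array other than NPRA+/+ replicate 1. Krt19 had -4.74 ± 0.41 in NPRA-/- samples and -6.80 ± 0.67 in NPRA+/+ samples (adjusted p = 0.0662, limma), but was well above background on 3 of 3 NPRA-/- arrays and 2 of 5 NPRA+/+ arrays. Wt1 had -0.42 ± 0.10 in NPRA-/- samples and -0.65 ± 0.27 in NPRA+/+ samples. The log2 summed level of the mesothelial genes ran from 0.25 to 0.81 on NPRA-/- arrays and from -0.54 to -0.0036 on NPRA+/+ arrays, and that of the nerve genes from 1.26 to 1.72 on NPRA-/- arrays and from 1.24 to 1.504 on NPRA+/+ arrays. Fibroblast genes ran from 6.77 to 7.17 on NPRA-/- arrays and from 6.59 to 6.69 on NPRA+/+ arrays. The mesothelial and fibroblast sums, like Kcnj2, did not overlap between the genotypes. By the mean level of a list's genes in place of the sum, the mesothelial and the smooth muscle and pericyte lists did not overlap (0.45 to 0.73 on NPRA-/- arrays and 0.29 to 0.41 on NPRA+/+ arrays for the second), while the fibroblast list did (3.23 to 3.73 on NPRA-/- arrays and 3.13 to 3.29 on NPRA+/+ arrays). That measure also separated the genotypes for other inward rectifiers and sulfonylurea receptors (-0.936 to -0.834 on NPRA-/- arrays and -1.18 to -0.944 on NPRA+/+ arrays). It did so too for two-pore and calcium-activated channels (-3.21 to -3.03 on NPRA-/- arrays and -3.57 to -3.25 on NPRA+/+ arrays). By the sum, both of these channel lists overlapped. The part of these lists in the Kcnj2 value was not tested.

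Among single markers, Dcn of fibroblasts had 5.90 ± 0.24 in NPRA-/- samples and 5.49 ± 0.15 in NPRA+/+ samples, and Postn had 2.89 ± 0.37 in NPRA-/- samples and 2.37 ± 0.27. in NPRA+/+ samples Myh11 of smooth muscle had -3.45 ± 0.21 in NPRA-/- samples and -4.19 ± 0.26 in NPRA+/+ samples (adjusted p = 0.0946, limma), Acta2 had 4.04 ± 1.14 in NPRA-/- samples and 3.78 ± 0.33 in NPRA+/+ samples, and Rgs5 had 2.80 ± 0.04 in NPRA-/- samples and 2.53 ± 0.34. in NPRA+/+ samples Pecam1 of endothelium had 1.48 ± 0.27 in NPRA-/- samples and 1.13 ± 0.18 in NPRA+/+ samples, and Egfl7 had 4.79 ± 0.08 in NPRA-/- samples and 4.53 ± 0.15. in NPRA+/+ samples The macrophage gene Csf1r had 3.16 ± 0.21 in NPRA-/- samples and 2.91 ± 0.09 in NPRA+/+ samples, and Mrc1 had 0.98 ± 0.10 in NPRA-/- samples and 0.81 ± 0.09. in NPRA+/+ samples Of the conduction system, Cntn2 had -4.06 ± 0.27 in NPRA-/- samples and -4.65 ± 0.34 in NPRA+/+ samples, Cacna1d had -4.41 ± 0.17 in NPRA-/- samples and -4.76 ± 0.12 in NPRA+/+ samples, and Cacna1g had -1.19 ± 0.71 in NPRA-/- samples and -1.52 ± 0.63. in NPRA+/+ samples Hcn4, the pacemaker channel, and Krt8 were well above background on 0 arrays, and Cd68 had no matched probe.

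**Figure D5:**
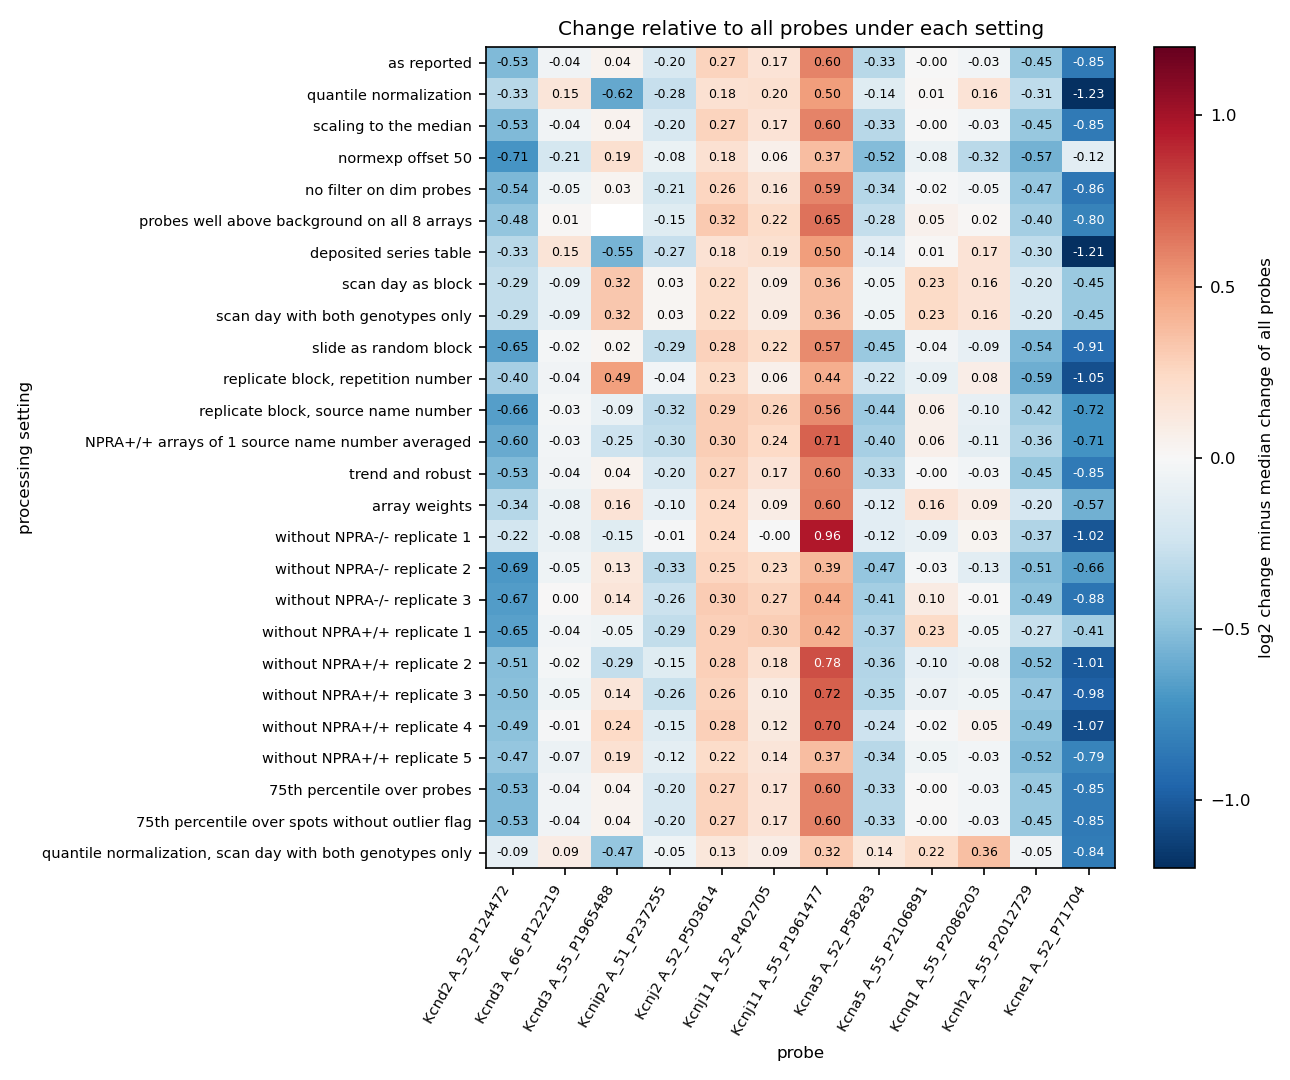
Change of each of the 12 potassium channel probes minus the median change of all probes (colour and number, log2, NPRA-/- over NPRA+/+; red above and blue below the median), as reported in the top row and under each other processing setting below it; an empty cell was not tested there. The Kcnj2 column and that of the Kcnj11 probe A_55_P1961477 are positive and the Kcnd2, Kcnh2 and Kcne1 columns are negative in every row, while Kcnq1, Kcnip2, both Kcnd3, both Kcna5 and the other Kcnj11 columns change sign between rows.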

How the data were processed

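The deposited scanner files of the 8 arrays hold linear intensity values, 1 line a spot. Agilent Feature Extraction 11.0.1.1 is named in the headers and in the submitters' processing notes. Per the file headers, its processed intensity has each array's own background removed, and flags mark spots well above background, saturated spots (0 here) and outliers. The deposited series table holds log2 values of the same arrays. How it was normalized is stated in neither the table nor the labels; each column has a median of 7.04 and ranks probes as its own array does (rank correlation at least 0.999).

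Control spots were left out, outlier spots were set to missing and the log2 values of a probe's spots were averaged. Scaling subtracted the 75th percentile of the 43020 non-control spots of the same array. That form of the percentile was chosen after the number of calls under 3 forms had been seen, which are given with the other alternatives. Well above background means that a share of 0.5 or more of a probe's spots carried that flag, and the test covered the 35329 probes with it on 3 or more arrays. Probes were named by RefSeq transcript in the gene table of assembly GRCm38.p6 (27234 of 39429 matched); no coordinates are printed, since the array was designed on an older build. No probe sequence was used.

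Genotype was the only term of a limma fit (version 3.58.1, R 4.3.3, lmFit, then eBayes), with two-sided p-values, Benjamini-Hochberg adjustment and a threshold of 0.05. The procedure was tested on simulated data. There, 17 of 50 probes given a log2 change of 1 were called (34%), and 11 of 159 calls were false. A change of that size can therefore go uncalled. The genes, lists and alternatives were chosen with earlier results of these data known. Named beside the 9 genes are, of each list, the 2 genes of smallest p, the brightest and any that passed, except for some genes that are not reported here; the brightest of several probes stood for a gene in the lists.

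Source names give 3 NPRA+/+ arrays the number 1. Deviations from the genotype mean correlated by 0.632, 0.279 and 0.357 between samples of equal repetition number, which passes the limit of 0.1 used to treat numbers as pairs. Unequal numbers also passed it (0.333 and 0.254 between numbers 2 and 3), so the data do not settle the pairing.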

Additional observations from a re-analysis of the deposited data

Results flagged for a closer look

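In 4 of the 12 potassium channel probes, 1 NPRA+/+ array lay apart from the other 4, by a gap large against the range of the group; chance marks about 1 in 20 groups in this way. Kcnd2 (A_52_P124472) had a level of 0.95 on NPRA+/+ replicate 1, and the nearest other NPRA+/+ array was at 1.46. Kcnh2 (A_55_P2012729) had 0.65 on the same array, with the next at -0.18. The Kcna5 probe A_55_P2106891 had -1.08 there, with the next at -2.13. The other Kcna5 probe, A_52_P58283, had 1.45 on NPRA+/+ replicate 4, with the next at 1.08. So 3 of the 4 fall on NPRA+/+ replicate 1, the only array of its scan day; the cause was not tested.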

How the results depend on the processing

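Of all tested probes, 113 were called higher and 10 lower in NPRA-/- samples. Counts were 0 and 0 under quantile normalization, scaling to the median, normexp, the deposited table, scan day or slide as a block, eBayes with trend and robust, and quantile normalization on scan day 1. They were 183 and 10 with no filter, 3 and 0 for probes bright on all 8 arrays, 5494 and 485 on scan day 1 alone, 1 and 0 with NPRA+/+ arrays of 1 source number averaged, 8808 and 749 with array weights, and 177 and 8 with 1 mean a gene. The percentile taken over probes gave 0 and 0 and over spots without an outlier flag 61 and 7; these 2, quantile normalization on scan day 1 and the subunit pairs were added after the data were seen. Leaving out 1 array gave 0 to 3901 higher and 0 to 187 lower, with calls only without NPRA+/+ replicate 1. Of potassium channel probes, 1 (Kcnj2) was called higher with array weights and 0 to 1 when an array was left out, and 0 were called lower throughout.

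With repetition number as a replicate block, 0 and 0 of all probes were called and Kcnj2 had 0.41 (adjusted p = 0.162, limma); with source name number as the block, 1 higher and 21 lower were called. Neither block called a potassium channel probe.

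Across single probes, 275 values kept their sign and call, 2 became calls (Kcnj2, given above) and 28 changed sign, all short of the threshold. Kcnip2 was -0.28 under quantile normalization and under the median, -0.27 in the deposited table, -0.068 with slide as a block, -0.092 with the source number block, -0.076 with averaged arrays, -0.016 with the percentile over probes, -0.077 under quantile normalization on scan day 1, and -0.10 to 0.18 without 1 array. The Kcnd3 probe A_55_P1965488 was -0.62 under quantile normalization, -0.038 under the median, -0.55 in the deposited table, -0.027 with averaged arrays, -0.49 under quantile normalization on scan day 1 and -0.078 (without NPRA+/+ replicate 2) to 0.44 when an array was left out. The Kcna5 probe A_52_P58283 was 0.13 with the scan day block and on scan day 1, 0.067 with array weights, -0.24 to 0.062 (without NPRA-/- replicate 1) when an array was left out, 0.041 as a mean of its probes and 0.11 under quantile normalization on scan day 1. Under the median, the Kcnd3 probe A_66_P122219 was -0.12, the Kcna5 probe A_55_P2106891 was -0.085 and Kcnq1 was -0.12; Kcne1 was 0.24 under normexp. Kcnd3 over Kcnip2 differed by -0.14 under normexp, -0.068 (without NPRA-/- replicate 1) to 0.28 when an array was left out and -0.11 on scan day 1, and Kcnq1 over Kcne1 by -0.20 under normexp. Scaling to the median moves every probe down by the same amount (the median change of all probes was -0.082 there, against 0.21), which fixes its sign changes by construction; the cause of the others was not tested. The weak Kcnd3 probe is limited by its signal, near background.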
